A study of Caenorhabditis elegans with 2 samples.

Results

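The regions described here were 270 of the 2000 strong peaks (13.5%) of a worm transcription factor ChIP-seq experiment whose summits lay in repeat-masked sequence. They were chosen from the deposited list of 28882 peaks called on both replicates pooled. The 2000 peaks of highest signal were taken as strong. A strong peak was kept if over 50% of the window of 50 bp to each side of its summit was soft-masked, meaning written in lower case in the RefSeq sequence of WBcel235, and if its summit was not within 200 bp of a tRNA, snRNA, snoRNA or rRNA gene. Masking alone held for 283 strong peaks, and 13 of them were set aside because a small RNA gene was that close. Signal and masking therefore chose the regions and are given as description only.

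The experiment used late embryos of the Caenorhabditis elegans strain OP615, whose genotype is unc-119(tm4063) III; wgIs615. Its stable transgene encodes Y22D7AL.16 fused at the C terminus to GFP-FLAG, and the precipitation was made through GFP. Whole embryos of mixed sex were collected 4.5 hours after synchronization by egg bleaching. There was 1 group with 2 biological replicates from this 1 strain, so no condition was compared, and the comparisons below are between sets of peaks. How many copies of the transgene the strain carries, and how much flanking DNA it holds, is not given in the sources used here. No precipitation from animals without the tag and no control library was analysed here.

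Repeats of the worm genome are of several kinds. Tandem repeats are short units copied head to tail. Inverted repeats have arms that can pair with each other and are a usual form of DNA transposon remnants. The telomere of this worm is built of the unit TTAGGC, and runs of the same unit also occur inside chromosomes. Repeats are denser on the autosome arms than in the centres, and much of their sequence is kept in a silent chromatin state in embryos. A soft-masked base need not be repeated, because masking also covers low-complexity stretches rich in A and T. In RefSeq, Y22D7AL.16 encodes a protein with a C2H2-type domain, a kind of zinc finger that often contacts DNA. Nothing is assumed here of the sequence it binds.

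The sequences that carry the description are shown first. Each is the window around a summit, from the RefSeq sequence of WBcel235 (ce11), 5′ to 3′, with coordinates counted from 1. Families, lettered A to J by size, are sets of these windows alike in sequence to each other at 80% identity over 50 bp. The windows of family C, which held the strongest of the regions, are shown because a unit of about 27 bp recurs in each of the 3 printed, and the capitals mark the 12 bp that all 6 members shared. The windows of family D are shown because they are copies of a dispersed element, with capitals again for 12 bp found in all 5 members. Family G is shown because its 4 members were all in promoters, with capitals for 12 bp found in all 4.
Family C, rank 14, chrIII:931559-931659, plus strand: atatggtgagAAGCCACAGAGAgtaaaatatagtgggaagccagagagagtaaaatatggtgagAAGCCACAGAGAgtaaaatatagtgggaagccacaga
Family C, rank 36, chrX:5056369-5056469, minus strand: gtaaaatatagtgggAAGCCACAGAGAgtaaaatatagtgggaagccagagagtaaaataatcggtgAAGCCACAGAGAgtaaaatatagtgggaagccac
Family C, rank 795, chrIV:9048246-9048346, plus strand: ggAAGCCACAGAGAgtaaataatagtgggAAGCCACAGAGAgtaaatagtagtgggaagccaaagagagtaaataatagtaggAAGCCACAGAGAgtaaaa
Family D, rank 180, chrIV:3050609-3050709, plus strand: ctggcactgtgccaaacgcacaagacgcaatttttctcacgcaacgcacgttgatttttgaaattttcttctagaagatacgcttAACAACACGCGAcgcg
Family D, rank 448, chrII:11534736-11534836, minus strand: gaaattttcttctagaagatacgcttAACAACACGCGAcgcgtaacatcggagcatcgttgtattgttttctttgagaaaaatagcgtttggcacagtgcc
Family G, upstream of ubc-6, chrII:7478897-7478997, plus strand: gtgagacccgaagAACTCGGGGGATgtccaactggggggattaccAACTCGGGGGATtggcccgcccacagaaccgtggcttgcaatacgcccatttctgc
Family G, upstream of cacn-1, chrII:14142273-14142373, plus strand: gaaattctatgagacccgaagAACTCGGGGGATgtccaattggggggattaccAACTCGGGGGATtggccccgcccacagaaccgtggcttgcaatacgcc

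The next windows show the simpler repeats and, for contrast, partly masked windows that are not repeated when taken whole. In family F the capitals mark runs of the AC dinucleotide of 12 bp or more. In family A they mark the telomere unit in its reverse complement, GCCTAA. In families B and E they mark 12 bp held by 12 of the 23 and by all 5 members. In the tandem arrays outside the families they mark the unit. In the promoters of sas-5 and fbxb-85, whose sequence occurs at 1 place in the genome, they mark the soft-masked bases.
Family F, rank 1439, chrX:14229557-14229657, minus strand: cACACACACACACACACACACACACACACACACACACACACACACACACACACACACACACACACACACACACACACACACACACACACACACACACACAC
Family A, rank 394, intron of unc-62, chrV:4510543-4510643, plus strand: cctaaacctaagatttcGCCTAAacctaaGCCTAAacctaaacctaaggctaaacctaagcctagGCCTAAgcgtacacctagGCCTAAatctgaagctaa
Family A, rank 734, intron of smf-3, chrIV:2623573-2623673, minus strand: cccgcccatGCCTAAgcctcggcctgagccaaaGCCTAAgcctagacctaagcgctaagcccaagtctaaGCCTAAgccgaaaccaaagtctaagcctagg
Family B, rank 683, promoter of clec-49, chrV:19751511-19751611, plus strand: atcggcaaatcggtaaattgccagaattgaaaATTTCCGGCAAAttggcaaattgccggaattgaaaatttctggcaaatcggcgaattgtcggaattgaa
Family E, rank 783, chrII:2830339-2830439, minus strand: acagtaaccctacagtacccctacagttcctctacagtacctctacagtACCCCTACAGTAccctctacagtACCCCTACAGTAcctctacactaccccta
Tandem array, rank 178, chrII:13986215-13986315, plus strand: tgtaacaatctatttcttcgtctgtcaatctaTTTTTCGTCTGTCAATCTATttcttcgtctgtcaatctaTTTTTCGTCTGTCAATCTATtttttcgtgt
Tandem array, rank 238, chrV:12510118-12510218, plus strand: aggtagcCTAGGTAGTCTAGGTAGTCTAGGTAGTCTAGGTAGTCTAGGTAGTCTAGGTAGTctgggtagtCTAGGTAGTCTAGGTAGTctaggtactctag
Promoter of sas-5, signal 176, chrV:11610640-11610740, plus strand: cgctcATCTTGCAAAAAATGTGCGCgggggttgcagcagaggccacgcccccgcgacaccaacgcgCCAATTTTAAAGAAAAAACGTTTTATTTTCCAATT
Promoter of fbxb-85, rank 150, chrIII:10849032-10849132, plus strand: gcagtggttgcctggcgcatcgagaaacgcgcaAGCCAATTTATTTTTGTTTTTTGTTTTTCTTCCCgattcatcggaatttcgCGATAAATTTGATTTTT

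Repeat-masked peaks were scarcer at the top of the list than further down. They made up 10.3% of the 29 peaks of rank 1 to 100 that were away from small RNA genes, 14.3% of the 175 between ranks 250 and 500, 17.0% of the 961 between ranks 1000 and 2000 and 23.2% of the 8815 below rank 20000. Over the genome 35.7% of bases were soft-masked, and masked sequence held 7.90 strong peaks per Mb, against 26.6 per Mb in the rest. Signal, the authors' value per peak, ran from 57.0 to 487 among the 270, with a median of 63.9. The last region inside the rank limit had rank 1994 and signal 57.02 at IV:11605007, and the next masked peak outside it had rank 2007 and signal 56.97 at III:11701852. At the masking limit, peaks at III:10849082, I:1823229 and III:4963100 had 50.5% of the window masked, and peaks at III:2146975, V:4444636 and IV:1462349 stayed outside with 49.5%. In all, 47 of the 270 had between 50% and 55% of the window masked, and 34 were masked throughout.

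Many of the windows, taken whole, were not repeated. The counts below include the unmasked bases of a window, so they do not show whether its masked bases alone are repeated. The count in the genome of the 16-base words of each window, taken as a median over the window, was 1 in 117 of the 270 (43.3%, exact 95% interval 37.3 to 49.5). It was 1 in 1388 of 1424 other strong peaks (97.5%, 96.5 to 98.2), which are the strong peaks outside masked sequence and away from small RNA genes. It was 1 in 2292 of 5750 weaker masked peaks (39.9%, 38.6 to 41.1), which pass the same masking and distance rule below rank 2000. These are the comparison sets used throughout, and intervals cover counting error only. A median count of 5 or more was found in 67 of the 270 (24.8%), in 6 other strong peaks (0.421%) and in 1183 weaker masked peaks (20.6%). Among the 118 regions with at least 75% of the window masked it was found in 50.8%. Every 36-base word of the window was unique in 203 of the 270 (75.2%), in 97.7% of other strong peaks and in 79.1% of weaker masked peaks, so most windows can be told apart by short reads. In 21 of the 270 under 50% of the 36-base words were unique, and whether reads that fit several places were kept is not given in the sources used here.

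Promoters made up a larger share of the 270 than of weaker masked peaks, and introns a smaller share, with intervals that did not overlap. A promoter ran from 500 bp before to 100 bp after the 5′ end of a gene coding for protein. Promoters held 65 of the 270 summits (24.1%, 19.1 to 29.6), against 434 other strong peaks (30.5%, 28.1 to 32.9) and 710 weaker masked peaks (12.3%, 11.5 to 13.2). Introns held 103 (38.1%, 32.3 to 44.2), against 25.4% of other strong peaks and 53.4% of weaker masked peaks. Exons held 20 (7.41%, 4.58 to 11.2), against 20.01% and 6.33%, and intergenic sequence held 82 (30.4%), against 24.2% and 27.9% in the same sets. The promoter share stood between those of the other strong peaks and the weaker masked peaks.

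**Figure D1:**
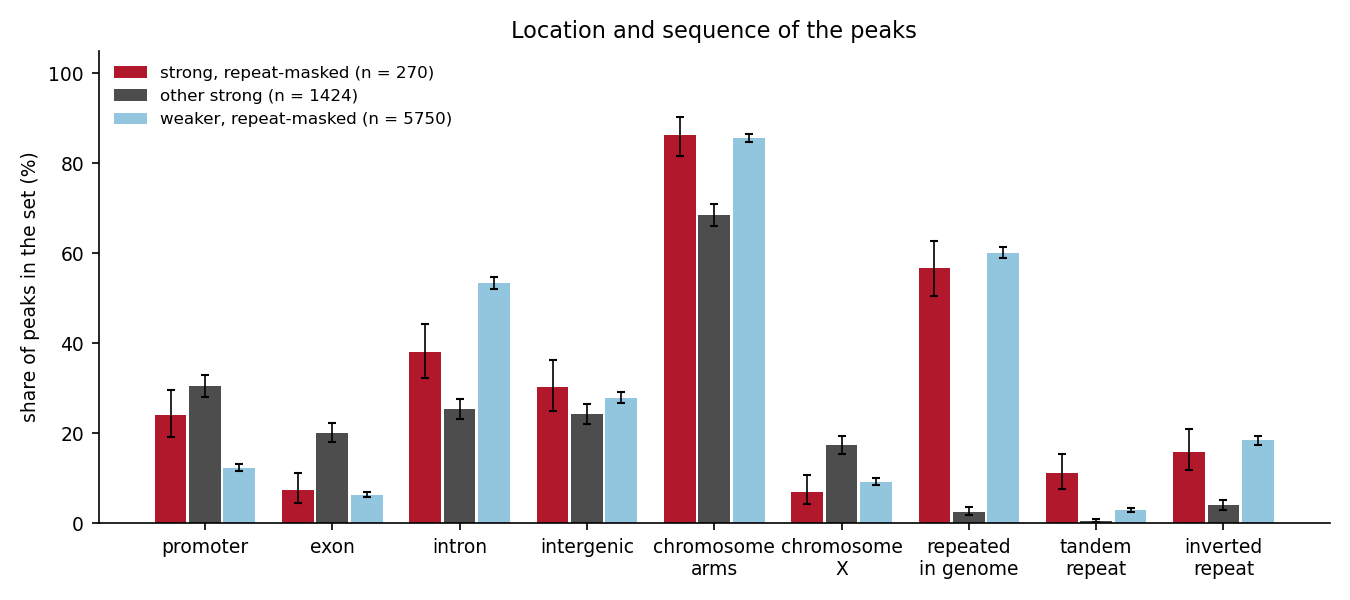
Share of peaks (%, vertical axis) by location, chromosome and sequence feature in the 270 strong repeat-masked peaks, the 1424 other strong peaks and the 5750 weaker repeat-masked peaks; bars are shares and lines are exact 95% intervals over peaks. The 270 resembled weaker masked peaks in arm share (86.3% and 85.6%) and stood above both sets in tandem repeats (11.1%, against 0.421% of other strong peaks and 2.89% of weaker masked peaks).

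The outer parts of the chromosomes held most of the regions. When each chromosome was cut into 3 equal parts, the outer parts held 233 of the 270 (86.3%, 81.6 to 90.2), against 975 other strong peaks (68.5%, 66.0 to 70.9) and 4922 weaker masked peaks (85.6%, 84.7 to 86.5). Of all masked bases, 73.7% were there. Chromosome X, which holds 15.1% of masked bases, held 19 of the 270 (7.04%, 4.29 to 10.8), against 247 other strong peaks (17.3%) and 532 weaker masked peaks (9.25%). Chromosomes I and III held 64 (23.7%) and 61 (22.6%) of the 270, with 16.4% and 15.4% of masked bases. GC content averaged 38.5% ± 9.28 (SD over 270 windows), against 47.2% ± 8.21 in other strong peaks and 34.3% ± 8.14 in weaker masked peaks.

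Tandem repeats made up a larger share of the 270 than of either comparison set. A window of 100 bp to each side of the summit was called tandem where at least 70% of its bases equalled those a fixed distance of up to 60 bp further on. This held for 30 of the 270 (11.1%, 7.62 to 15.5), for 6 other strong peaks (0.421%, 0.155 to 0.915) and for 166 weaker masked peaks (2.89%, 2.47 to 3.35). Among masked peaks by rank it held for 2 of the 3 of rank 1 to 100, 3 of the 8 between ranks 100 and 250, 3 of the 25 between ranks 250 and 500, 4 of the 71 between ranks 500 and 1000 (5.63%), and 18 of the 163 between ranks 1000 and 2000 (11.0%). It then held for 36 of the 541 between ranks 2000 and 5000 (6.65%) and 50 of the 2048 below rank 20000. The excess was thus not present at every rank, since the share between ranks 500 and 1000 was below that between ranks 2000 and 5000. When the same rule chose regions from 1 replicate alone, the tandem share exceeded that of weaker masked peaks by 8.52 percentage points in replicate 1 and by 7.34 in replicate 2. None of the 30 tandem regions was in a promoter, 13 were in introns and 16 were intergenic. Perfect inverted repeats with arms of 12 bp or more were in 43 of the 270 (15.9%, 11.8 to 20.8), against 3.93% of other strong peaks and 18.4% of weaker masked peaks.

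**Figure D2:**
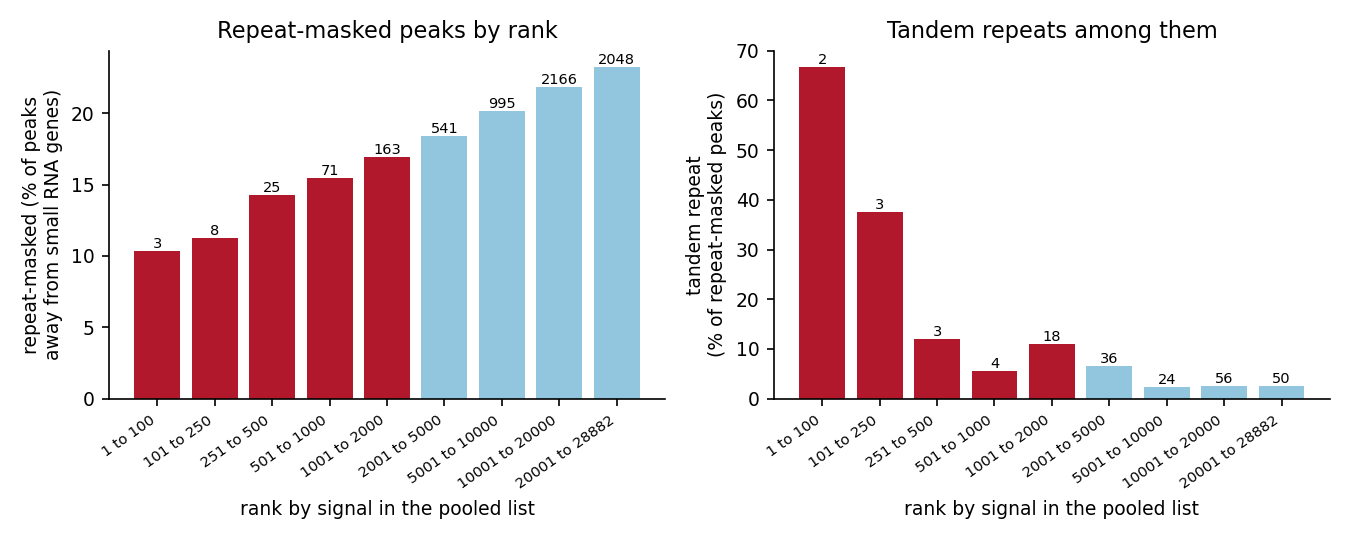
Left, the share of peaks away from small RNA genes that were repeat-masked (%, vertical axis) by rank in the pooled list; right, the share of those masked peaks called tandem repeat (%). Numbers over the bars are counts of peaks, red marks ranks up to 2000 and blue the ranks below; the masked share climbed from 10.3% to 23.2% down the list while the tandem share was highest in the first bars, which rest on 3 and 8 masked peaks, and was 5.63% between ranks 500 and 1000.

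Family C held the strongest regions. Its member at I:933516, between genes and 4967 bp upstream of nas-30, an astacin-type zinc metalloproteinase gene, had signal 487 and rank 7 in the pooled list, with rank 6 in replicate 1 and rank 4 in replicate 2. With 61.2% of bases equal at the best distance it missed the tandem limit of 70%, which the other 5 members passed. The array at III:931609 had signal 335 and rank 14, with ranks 15 and 10 in replicates 1 and 2. The array at X:5056419 had signal 261 and rank 36, with ranks 61 and 24. These 3 were near the top of both replicate lists. The other 3 members were weaker. IV:9048296 had ranks 213 and 231 in replicates 1 and 2, II:14338287 had ranks 2228 and 1770, and III:7444951 had ranks 6754 and 226. Of the 6, this last member differed most between replicates. All 6 were intergenic, and between 28.8% and 75.8% of the 36-base words of their windows were unique. Loci in the genome alike to a family include its members, which were chosen as strong peaks, so counts of strong loci here and below partly restate the choice. Only those of families B and E are set beside an average. The genome held 48 loci alike to family C, of which 20 had a pooled peak and 6 a strong peak within 100 bp, and the 6 were these members. Loci with a strong peak covered 1578.5 bp in the median, against 1397 bp for loci with a weaker peak and 510 bp for loci with none.

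Family D was a dispersed element with inverted arms. Its strongest member, at IV:3050659 and 555 bp upstream of eel-1, a gene for a HECT-type ubiquitin ligase, had signal 133 and rank 180, with ranks 188 and 194 in replicates 1 and 2. A member 278 bp upstream of supr-1 had rank 418, with ranks 1374 and 446, and a member 307 bp upstream of Y62F5A.12 had rank 448, with ranks 1088 and 447. Members in an intron of duo-3 and 222 bp upstream of C26B2.7, which RefSeq names as a cytochrome c oxidase assembly factor, had ranks 782 and 1271. The longest perfect inverted repeat around these 5 summits had arms of 22 to 52 bp. Of the 5, 4 were overlapped by a top 2000 peak of both replicates, where the share was 20.4% over the 270. For the copy upstream of C26B2.7, the overlapping replicate 1 peak had its summit over 100 bp away. The strongest replicate 1 peak with a summit within 100 bp of that copy had rank 6807. The genome held 113 loci alike to family D. Of these, 32 had a pooled peak and 10 a strong peak. Among the 55 loci of 150 bp or more, whose median length was 178 bp, 21 had a pooled peak and 7 a strong one (12.7%, 5.27 to 24.5). So most copies of the element had no peak in the list. Between 0% and 54.5% of the 36-base words of the 5 member windows were unique. Of the 55 longer loci, 36 matched a member at 95% identity or more. Whether reads that could not be placed left copies without a peak was not tested.

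The 10 strong loci of family D included 6 of the 270 and 4 strong peaks with unmasked summits. The strongest of those 4 had rank 20 and signal 303, at III:3500039 in an intron and 982 bp upstream of M01F1.9. Its window had 0% masked bases and only unique 36-base words. A further peak, at IV:3050910 and 806 bp upstream of eel-1, was among the 270 with rank 263. It lay under the same replicate peaks as its neighbour at IV:3050659 and is not a separate observation in the replicates. The same holds for the peak at II:11535022, with rank 672, and the family D member upstream of Y62F5A.12.

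All 4 members of family G lay in promoters. They were 240 bp upstream of ubc-6, a ubiquitin-conjugating enzyme gene, 305 bp upstream of czw-1, the worm homologue of the kinetochore gene zw10, 175 bp upstream of cacn-1, which encodes the splicing factor cactin, and 181 bp upstream of T22C1.1. Their pooled ranks were 922, 998, 1660 and 1887. None was in the top 2000 of both replicates, where the share was 20.4% over the 270 and fell steeply with pooled rank. Ranks were 2408 and 1214 at ubc-6, 575 and 4962 at czw-1, 651 and 10552 at cacn-1, and 2005 and 2074 at T22C1.1, for replicates 1 and 2. GC content averaged 58.4% in this family, and between 12.1% and 60.6% of the 36-base words of its windows were unique. Of 70 loci in the genome, 18 had a pooled peak and 4 a strong one, which were the 4 members themselves.

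Family F was made of the AC dinucleotide repeat and its complement. Its members lay in introns of ppfr-1, a regulatory subunit gene of protein phosphatase 4, of Y105C5A.1 and of lpd-3, and at X:14229607 between genes. The member in ppfr-1 had signal 127 and rank 200, with ranks 181 and 233 in replicates 1 and 2. The other 3 differed more between replicates, the intergenic array having rank 17677 in replicate 1 and 610 in replicate 2. Of 82 loci alike to family F, 47 had a pooled peak (57.3%) and 19 a strong one (23.2%). Those 19 were 6 of the 270 and 13 strong peaks whose summit windows were masked over less than 50%.

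Arrays of simple units were also located in the genome without reference to peaks. Of 73 perfect arrays of the AC unit of 30 bp or more, 35 had a pooled peak within 100 bp (47.9%) and 15 a strong peak (20.5%, 11.98 to 31.6). In replicate 1 alone 8 of the 73 had a peak among the top 2000, and in replicate 2 alone 10 had. Of 137 arrays of AG, 7 had a strong peak (5.11%, 2.08 to 10.2), and of 169 arrays of AT none had (0%, 0 to 2.16). Of 422 arrays of the telomere unit of 24 bp or more, 16 had a strong peak (3.79%, 2.18 to 6.08). The other units searched had 13 arrays or fewer each and none with a strong peak. This search was added after the families had been seen, and its strong peaks can be the regions in which the units were noticed.

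**Figure D3:**
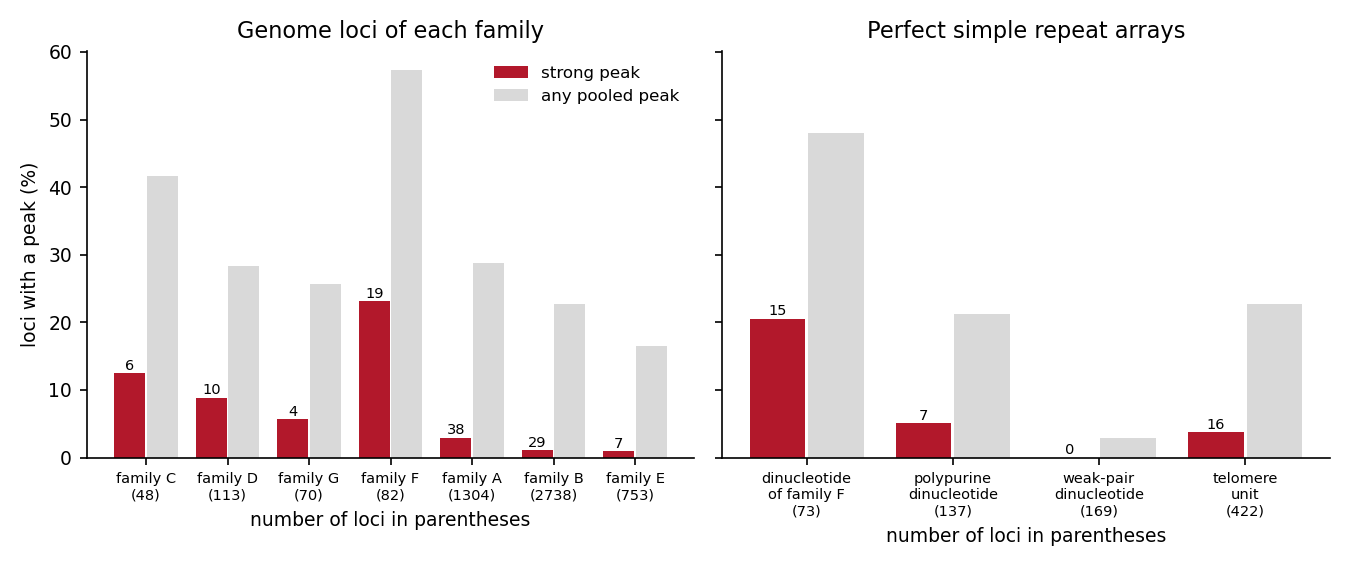
Share of genome loci (%, vertical axis) with a strong peak (red, count above the bar) or with any pooled peak (grey) within 100 bp, for the 7 largest families on the left and for perfect simple repeat arrays on the right, with the number of loci in parentheses. Family F and the arrays of its dinucleotide had the highest strong shares, 23.2% and 20.5%, while families B and E, with 2738 and 753 loci, had 1.06% and 0.930%. The members that defined each family are among the loci, and shares are per locus, not per length of sequence.

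Family A was the largest, with 24 members holding telomere-like repeats, 23 of which had the unit TTAGGC or its complement. All 24 lay on chromosome arms, 15 in introns, 8 between genes and 1 in a promoter. The strongest lay in an intron of unc-62, a Meis-type homeobox gene, with signal 89.4 and rank 394, and ranks 566 and 714 in replicates 1 and 2. The next lay at II:10201823 with rank 495, and ranks 886 and 1037. In the top 2000 of both replicates were 3 of the 24, where the share was 55 of all 270 (20.4%) and fell steeply with pooled rank. The genome held 1304 loci alike to family A, of which 376 had a pooled peak and 38 a strong one. A pair of regions near srg-34, a chemoreceptor gene, at V:18565776 and V:18565986, shared the same replicate peaks.

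Families B and E had many loci, of which a small share had a strong peak. Family B had 23 members, all on arms, led by I:2717583 with rank 414 and by III:2628285, 728 bp upstream of acbp-8, with rank 622. It had 2738 loci, of which 622 had a pooled peak and 29 a strong peak. Family E, with a unit holding ACTGTA or its complement, had 5 members of rank 783 to 1951 and 753 loci, of which 124 had a pooled peak and 7 a strong peak. At the genome's average per length, the loci of families B and E would hold 27.7 and 6.86 strong summits, and they held 29 and 7. The members, which were chosen as strong, are among these summits. A further 3 families, H to J, had 2 members each. In all 77 of the 270 (28.5%) were in a family and 193 in none. Families rest on matches between the windows, and some of the 193 lay at family loci, such as X:4606677 and IV:16491769 at loci of family F.

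Tandem arrays outside the families included 3 with high signal. The array at II:13986265 had a unit of 20 bp, signal 133 and rank 178, with ranks 397 and 185 in replicates 1 and 2. The array at V:12510168 had a unit of 9 bp, signal 115 and rank 238, with ranks 618 and 203. The array at V:5284799 repeated at 52 bp, with signal 83.1 and rank 467, and ranks 320 and 234. All 3 were intergenic and in the top 1000 of both replicates. Between 3.03% and 21.2% of the 36-base words of their windows were unique.

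Among regions with a median word count of 1, the 3 of highest signal were in promoters. The summit 47 bp upstream of sas-5, a gene for a centriole assembly protein, had signal 176, with ranks 130 and 94 in replicates 1 and 2. The summit in the promoter of fbxb-85, an F-box gene, had signal 144 and rank 150, with ranks 116 and 329. The summit in the promoter of haf-6, an ABC transporter gene, had rank 222, with ranks 243 and 193, and belonged to family H, which had 46 loci. The next was intergenic, near ztf-27, with rank 237 and ranks 282 and 294. The summit in the promoter of F56G4.6 had signal 110.0, with ranks 256 and 318. Intergenic regions 749 bp upstream of spat-3, a Polycomb-related RING protein gene, and at IV:3050910 followed with ranks 261 and 263. The summit upstream of spat-3 lay 15 bp beyond the end of a locus alike to family F, the AC repeat. The summit 218 bp upstream of chaf-2, a chromatin assembly factor subunit gene, had rank 282, with ranks 254 and 468. All 5 promoter summits were within the top 500 of both replicates, and the windows of sas-5, fbxb-85 and chaf-2 were masked over only 54.5%, 50.5% and 50.5%.

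Among the other promoters of the 25 regions of highest signal, those of usp-39 and C27F2.9 differed most between replicates. The summit 196 bp upstream of usp-39, which encodes a homologue of a splicing-related ubiquitin-specific protease, had rank 372, with rank 263 in replicate 1 and 5978 in replicate 2. The summit 56 bp upstream of C27F2.9 had rank 391, with ranks 238 and 7180. Promoters of Y105E8B.11, Y76B12C.6, glb-30 and supr-1 completed the 11 promoters among these 25. Their ranks in replicates 1 and 2 were 514 and 358, 478 and 614, 339 and 593, and 1374 and 446, in that order. The remaining 14 of the 25 comprised 11 intergenic and 3 intronic summits. An intergenic one near dnj-30 (rank 414) is the strongest member of family B. A second region of usp-39, in an intron at II:2570584, had signal 102, with ranks 158 and 1014. Of the 25, 22 were in the top 2000 of both replicates (55 of all 270 were), 12 had a median word count of 1 and 6 were tandem.

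Over all 65 promoter regions the summit had a median position of -188 relative to the 5′ end, with a lower quartile of -244. Of the 65, 48 were on arms and 22 (33.8%) were in the top 2000 of both replicates, where the share was 20.4% over the 270. Within 1000 bp of a protein-coding 5′ end were 109 of the 270, at 106 genes. Gene kinds were counted by symbol prefix alone, such as rpl- and rps- for ribosomal protein genes, so genes with other symbols were not counted. By these prefixes ribosomal protein genes were 3 of the 106 (2.83%), namely rpl-12, rpl-7 and rpl-25.2, against 11 of 655 genes at other strong peaks (1.68%) and 8 of 1806 at weaker masked peaks (0.443%). The peak 57 bp upstream of rpl-12 had rank 785, with ranks 2752 and 876. The peak 232 bp upstream of rpl-7 had rank 1412, with ranks 1224 and 1478. The peak 104 bp upstream of rpl-25.2 had rank 1603, with ranks 12780 and 1265. Chemoreceptor genes, a large family on the arms, were 1 of the 106 (0.943%), against 1.22% of genes at other strong peaks and 3.71% of genes at weaker masked peaks. Collagen genes were 2, F-box genes 2, and nuclear hormone receptor and C-type lectin genes 1 each. Symbols of histone, BTB/MATH and cytochrome P450 genes, and the zinc finger prefixes zfp- and ztf-, were at 0 of the 106. Zinc finger genes with other symbols were not counted.

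Short words were counted on both strands of the windows as present or absent. The telomere unit in 2 consecutive copies was in 16 of the 270 (5.93%), against 0.140% of other strong peaks and 2.61% of weaker masked peaks. The core TATAAA was in 4.44% of the 270, against 4.49% and 10.6% of the same sets. TTTCAA was in 28.1%, against 13.4% and 36.7%, GGGCGG in 4.81%, against 7.58% and 2.63%, and CACCC in 8.15%, against 13.3% and 5.62%. CACGTG was in 0.741%, against 2.60% and 1.74%, and GTTCGA, the core of the tRNA B box, in 2.96%, against 3.58% and 2.50%. The whole B box was in 1.11%, against 0.351% and 0.400%, GAGAGAGA in 2.22%, against 3.93% and 0.800%, and GTGTTTGC in 2.59%, against 1.97% and 1.46%. The hexamer with the largest excess over weaker masked peaks was AGCCTA (13.3% of the 270, against 5.79%). Of the next 4, 3 are also parts of the telomere repeat and overlap it. The other of those 4, AGAGAG, was in 8.89% of the 270, against 14.5% of other strong peaks and 3.06% of weaker masked peaks. Among the 193 regions in no family AGCCTA was in 6.22%, and in weaker masked peaks in the same 5.79%. The weaker masked peaks were not sorted by family and include peaks at family loci, so these sets are unlike. Some of the 193 lay at family loci as well. Against the same unsorted peaks, the largest excess of the 193 was of AAATAA, in 35.2%, against 24.6%. Other strong peaks had it in 11.9%. A match is only a description of the letters in the window.

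The word TGCGC was looked at after the promoter windows had been seen. It was in 32 of the 270 (11.9%, 8.25 to 16.3), in 273 other strong peaks (19.2%, 17.2 to 21.3) and in 433 weaker masked peaks (7.53%, 6.86 to 8.24). In promoters it was in 13 of the 65 (20%, 11.1 to 31.8), against 32.3% of other strong peaks in promoters and 11.0% of weaker masked ones. Among regions of rank 1 to 500 with a median word count of 1 it was in 8 of 16 (50%, 24.7 to 75.3), against 84 of 231 other strong peaks (36.4%, 30.2 to 42.9). The intervals of these last shares overlap.

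Likeness to small RNA genes was slight. A match of 80% identity over 30 bp to an annotated small RNA gene was found for 11 of the 270 (4.07%, 2.05 to 7.17), all to snoRNA genes, against 21 other strong peaks (1.47%) and 299 weaker masked peaks (5.20%). At 90% identity, or over 50 bp, there was 0 of 270, with an upper bound of 1.36%. No region lay within 200 bp of a pseudogenic tRNA.

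Few of the 270 were strong in both replicates. A strong peak of both replicate lists, meaning one of the 2000 of highest signal in each, overlapped 55 of the 270 (20.4%) and 394 other strong peaks (27.7%), where the share was 34.5% over all strong peaks and 2.89% over all pooled peaks. Pooled signal is made from the same replicates, so this is a description of the choice and no independent check. A further 93 were in the top 2000 of replicate 1 only, 72 of replicate 2 only and 50 of neither, and 11 had no peak in replicate 2. In the authors' thresholded list were 30 of the 270 (11.1%) and 221 other strong peaks (15.5%), where the share was 23.4% over all strong peaks and 1.62% over all pooled peaks. Of the 270, that list held every region down to pooled rank 467 and none from rank 471 on. For these regions it was a stricter limit on pooled rank and no separate measure of replicate agreement. Within ranks 1 to 500 the share strong in both replicates was 29 of 36 (80.6%), against 218 of 239 other strong peaks (91.2%). Within ranks 1501 to 2000 it was 1 of 89 (1.12%), against 11 of 395 (2.78%). The share fell steeply with pooled rank in both sets. Over the 259 regions with a peak in both lists, Spearman's rank correlation between the replicate lists was -0.110, and over 1380 other strong peaks it was 0.0184; all points were selected on the pooled signal.

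**Figure D4:**
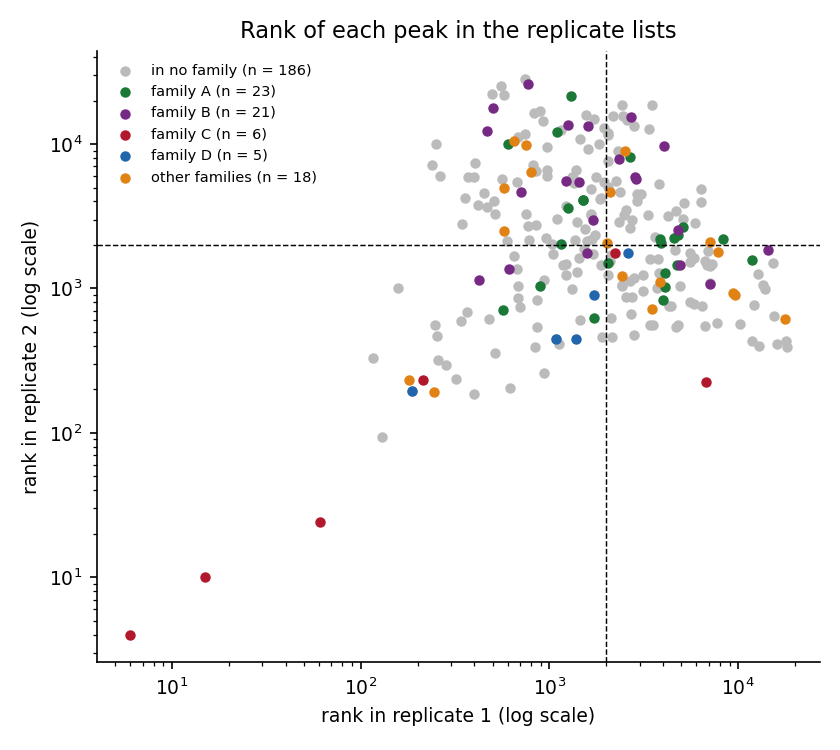
Rank of each of the 259 regions with a peak in both replicate lists, with rank in replicate 1 on the horizontal axis and rank in replicate 2 on the vertical axis (both log scales, rank 1 strongest); colours give the sequence family and dashed lines mark rank 2000. The 3 strongest members of family C stood apart at ranks 6 and 4, 15 and 10, and 61 and 24, and most regions lay on or beyond a dashed line in at least 1 replicate.

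The neighbourhood of the native Y22D7AL.16 gene (III:1662104-1665216, minus strand) held 7 of the 270 within 20 kb, where the share of chromosome length would give 0.191 of the 61 regions of chromosome III. It also held 9 other strong peaks, which makes 16 strong peaks where length would give 1.12. The transgene carries Y22D7AL.16 sequence, and signal from the transgene and from the native copy cannot be told apart where they hold the same sequence. The 7 lay 1904, 2694, 3436, 4731 and 8271 bp upstream of the 5′ end of the gene and 10477 and 13955 bp from it in the direction of transcription. The strongest, in the promoter of the globin gene glb-30 and 33 bp upstream of it, had signal 87.4 and rank 408, with ranks 339 and 593. The next, at III:1669947, had rank 473, with rank 255 in replicate 1 and no peak in replicate 2. All 7 were in the top 1000 of replicate 1, with ranks 255 to 935. In replicate 2 their ranks were 593, 863 and 5459, and 4 had no peak, which are 4 of the 11 regions without a peak in that replicate. In the top 2000 of both replicates were 2 of the 7, against 8 of the 9 other strong peaks, among them peaks with ranks 166 and 134 and with ranks 292 and 698. Some of these peaks lay under the same replicate peaks. Around unc-119 (III:10902641-10908935), mutated in the strain, there were 0 of the 270 and 1 strong peak. Without the 7, the promoter share was 24.3% and the arm share 85.9%.

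**Figure D5:**
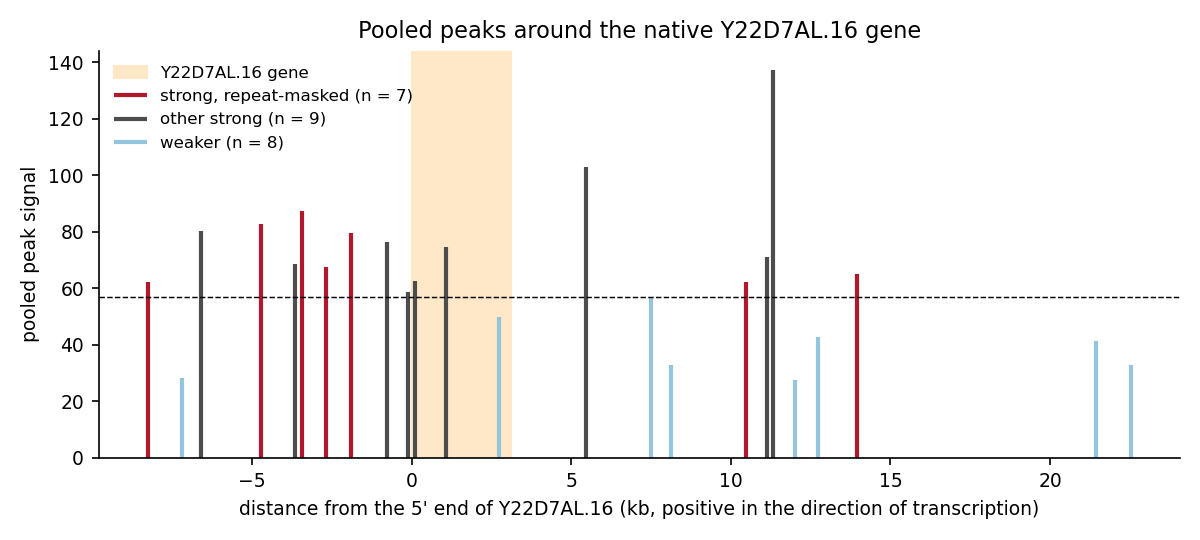
Signal of pooled peaks (vertical axis) by distance from the 5′ end of Y22D7AL.16 (kb, positive in the direction of transcription), with the gene shaded and the lowest signal of the strong peaks dashed. Strong repeat-masked peaks (red) and other strong peaks (black) stood on both sides of the gene, from 8271 bp upstream to 13955 bp in the direction of transcription.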

How the data were processed

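The 2 biological replicates formed 1 group. Per the file listing, lists that hold background as well as peaks were made from the alignments of each replicate and of both, with a control, and an IDR-thresholded list of 469 peaks followed. Signal in the deposited lists comes from the authors' caller and ranked peaks within a list only. Depth is unknown: the sources used here name no aligner, no caller and no number of reads.

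Ensembl release 115 gene models and the RefSeq sequence of WBcel235, which is ce11, were used. How bases were masked is not given in the sources used here. Promoter, exon, intron and intergenic classes were given in that order. Alternative rank limits, windows, masked shares, distances and lists were tried. Families, and their genome loci (matches within 200 bp merged), came from BLAST 2.17.0, other values from Python 3.11.15 with numpy 2.4.6, pandas 2.3.3, SciPy 1.17.1 and numba 0.67.0, and figures from matplotlib 3.10.9. The procedures were tested on simulated data. Shares have exact Clopper-Pearson 95% intervals, and no test was run over regions, which are not replicates. The regions, lists and rules were chosen with earlier results of these data known. The genes named, except 1 that is not reported here, are those at the 25 regions of highest signal, at the strongest members of the 5 largest families and at the limits. Others were chosen after their values were seen.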

Additional observations from a re-analysis of the deposited data

How the results depend on the processing

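The 3 differences recomputed (promoter and tandem shares against weaker masked peaks, arm share against other strong peaks) kept their direction, and other contrasts were not recomputed. In all, 115 of 164 recomputed values stayed within an interval or within 1.5 times the count. A share was judged by its own interval. The promoter and arm differences were judged by the width of the interval of the share. For the tandem difference the width was that of the share with repeated words, so it was not judged by an interval of its own. The number of regions, 270, was 107 and 457 with rank limits of 1000 and 3000, 30 in the thresholded list, and 641 and 118 with at least 25% and at least 75% of the window masked. Among the 270 the thresholded list was a cut between pooled ranks 467 and 471, so this setting is a stricter rank limit. The promoter share, 24.1%, was 29.9% at rank limit 1000, 43.3% in the thresholded list, 30.4% and 17.8% at those masked shares, 32.7% with the window of 100 bp to each side, and 13.7% and 31.9% with narrower and wider promoters. The intron share, 38.1%, was 30.8% at rank limit 1000, 13.3% in the thresholded list and 46.6% with 75% masked, and the exon share, 7.41%, was 3.33% in the thresholded list. The promoter excess over weaker masked peaks, 11.7 points, was 17.3, 30.6 and 20.4 points at rank limit 1000, in the thresholded list and with that wider window. The arm share, 86.3%, was 81.3% at rank limit 1000, 78.8% and 91.5% at those masked shares and 73.7% with narrower arms, and its excess over other strong peaks, 17.8 points, was 12.02, 21.7 and 23.8 points under the last 3. On 1 replicate alone the arm share was 79.4% to 81.7%, its excess 9.93 to 15.97 points, and the share alike to a small RNA gene 3.83% to 8.62%. That last share was 0% at 90% identity and 0% over 50 bp. The share strong in both replicates, 20.4%, was 44.9% and 13.3% at rank limits 1000 and 3000, 15.6% with summits within 100 bp, and 10.4% and 54.8% with the top 1000 and 5000 of each replicate. The share with repeated words, 24.8%, was 40% in the thresholded list, 10.8% and 50.8% at those masked shares, 56.7% and 14.8% with median counts of 2 and 20, and 9.26% with 24-base words. The excess of tandem repeats, 8.22 points, was 20.2 in the thresholded list, and 3.47 and 14.03 with at least 25% and at least 75% masked. At 90% identity 37 regions were in families, against 77. The cause of these shifts was not tested beyond the settings themselves. Depth is unknown, and leaving out the 20 kb around Y22D7AL.16, chosen after seeing the data, moved none of the values past these limits. No paired analysis was possible because there is 1 group.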

Other observations

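The 13 strong masked peaks left out for a nearby small RNA gene were 9 at tRNA, 2 at snRNA and 2 at snoRNA genes. The strongest lay at III:10989802, 22 bp from an snRNA gene, with signal 234 and rank 55, and at V:15465222, 3 bp from a tRNA gene, with signal 220 and rank 62. The other 11 had ranks of 188 to 1706. Neighbouring pairs of the 270 regions within 1000 bp of each other numbered 5, and within 10000 bp 25.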
